A study of Mus musculus with 2 samples.

Results

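The genes described here are the collagens and a set of extracellular matrix genes of mouse gastrocnemius, the large muscle of the calf, as seen by long-read RNA sequencing. A gene was included when its symbol was Col, digits, a, digits, or was one of 18 named genes: Dcn, Lum, Bgn, Fn1, Sparc, Gsn, Pdgfra, Serpinh1, Postn, Fbn1, Eln, Timp2, Timp3, Mmp2, Lox, Mgp, Nid1 and Lamb2. GENCODE M21 annotates 62 such genes, 44 of them collagens, and 54 had at least 1 read, among 15508 known genes with reads in the series. All 18 named genes and 36 collagens had reads, 47 members in replicate 1 and 52 in replicate 2. The tissue came from male B6CASTF1/J mice, an F1 hybrid of the C57BL/6J and CAST/EiJ strains, at 36 days of age. There is 1 group of 2 biological replicates, with no treatment, and each library was made from 2 µg of total RNA with synthetic spike-in RNAs added. The labels give each library its own tissue sample but 1 shared donor entry, so every comparison below sets these 2 libraries against each other and says nothing on a condition.

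Collagens are secreted as trimers whose chains wind into a triple helix, which requires glycine at the first place of each repeated Gly-X-Y triplet. Fibrillar collagens such as types I, III and V form the fibres of the endomysium, perimysium and tendon, type IV forms the network of the basement membrane around each muscle fibre, and type VI forms beaded filaments just outside it. Most of these chains are made by fibroblasts between the fibres rather than by the fibres themselves. Small proteoglycans such as decorin bind the fibrils, glycoproteins such as fibronectin and laminin link matrix and cells, and chaperones, lysyl oxidase, metalloproteinases and their inhibitors fold, crosslink and degrade the matrix.

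The repeat is written in the exons of the fibrillar genes, many of which are 54 bases long and hold only whole triplets. The first such exon of 4 fibrillar members is shown from the GENCODE M21 transcripts (mm10), in coding direction, because this unit recurs along the transcripts whose coverage is described further on. Capitals mark the glycine codons.
Col1a1 exon 8, chr11:94939904-94939957, plus strand: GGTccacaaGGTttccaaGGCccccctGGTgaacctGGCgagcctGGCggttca
Col1a2 exon 8, chr6:4515481-4515534, plus strand: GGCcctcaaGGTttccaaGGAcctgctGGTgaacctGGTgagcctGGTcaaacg
Col3a1 exon 6, chr1:45325360-45325413, plus strand: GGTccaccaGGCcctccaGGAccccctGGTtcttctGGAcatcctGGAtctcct
Col5a2 exon 6, chr1:45434892-45434945, minus strand: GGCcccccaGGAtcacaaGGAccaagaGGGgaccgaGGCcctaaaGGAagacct
In Col1a1, 21 of 49 internal coding exons had exactly 54 bases and 87.8% had a length divisible by 9, against 0.727% and 14.3% of the 156367 internal coding exons of all genes. The counts were 24 of 49 exons in Col3a1, 24 of 50 in Col1a2 and 24 of 52 in Col5a2. The longest unbroken run was 338 triplets in Col1a1, 339 in Col1a2 and Col5a2 and 344 in Col3a1. The network-forming chains had shorter runs, 40 triplets in Col4a1 and 66 in Col4a2, and only 2 and 1 exons of 54 bases.

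Replicate 1 held 1036455 reads in known mouse genes and replicate 2 held 1374068, so that a count of 0 allows a level of up to 2.89 and 2.18 CPM (read counts scaled to 1000000 reads in known genes). A long read was counted as 1 cDNA molecule, whatever the length of the transcript, so CPM was not divided by length. Every read belongs to a transcript model, and the models fall into classes: annotated, new combination (known splice sites joined in another way), new junction (at least 1 unannotated splice site), partial (an annotated junction chain that lacks one or both ends) and genomic (not explained by the annotated exon structure). The libraries differed in these classes over all genes: 11.1% of reads in replicate 1 and 16.1% in replicate 2 were in partial models, and 3.48% and 8.23% were in genomic models. The median model length over reads was 1697 bases in replicate 1 and 1126 in replicate 2. Intervals given below come from the read counts of these libraries alone and cover counting error only. Reads carry no molecular identifiers, so repeated reads of 1 molecule could not be told apart.

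Matrix transcripts took 8120 reads in replicate 1 and 4003 in replicate 2, which is 0.783% and 0.291% of the reads in known genes. Their summed level was 7834 CPM in replicate 1 and 2913 CPM in replicate 2 (mean 5374 ± 3480, SD, n = 2). Collagens made up 3960 and 1242 CPM of this and the other members 3875 and 1672 CPM. Levels were concentrated in few genes: 12 members had at least 100 reads over both libraries, 22 had 10 to 99 and 20 had fewer. The order of the most abundant genes was Gsn, Col3a1, Col1a1 and Sparc in replicate 1, and Gsn, Sparc, Col3a1 and Col4a2 in replicate 2.

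**Figure D1:**
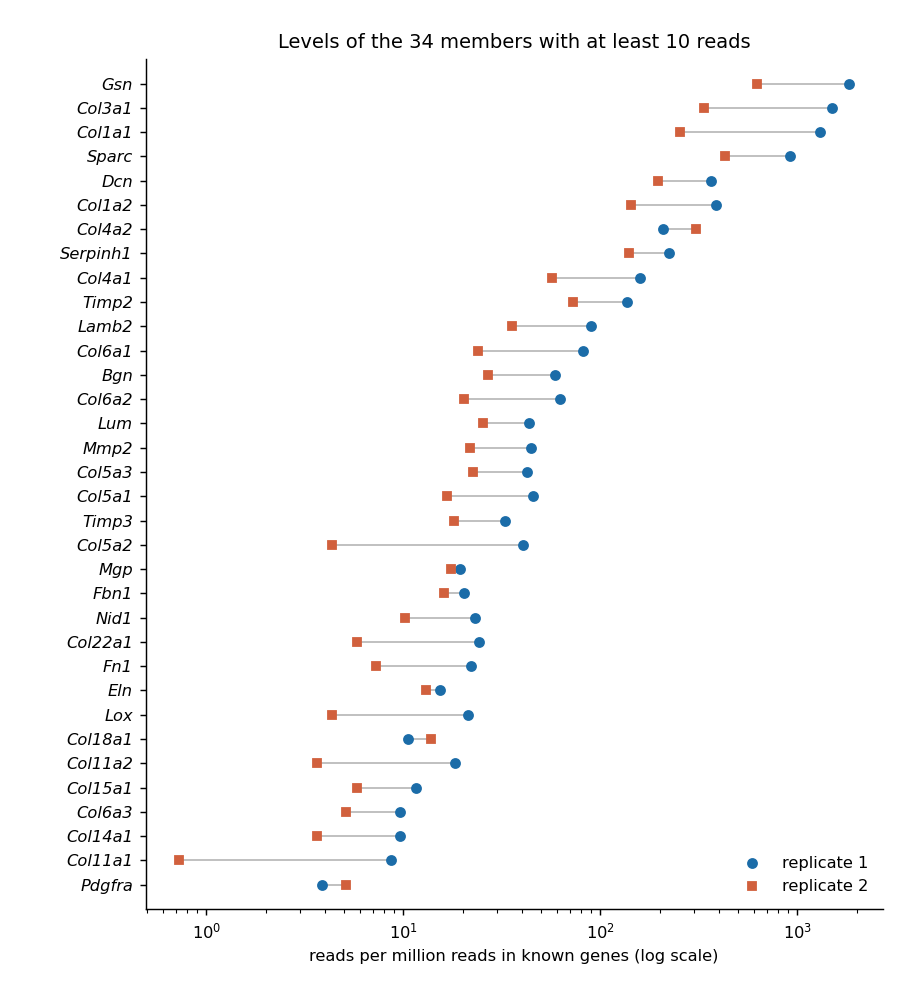
Level of each member with at least 10 reads in sum, in CPM on a log axis; circles are replicate 1, squares replicate 2, and the grey line joins both values of a gene. Replicate 1 is higher for 31 of the 34 genes; Col4a2, Col18a1 and Pdgfra are higher in replicate 2.

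The 2 libraries were compared gene by gene with a two-sided exact binomial test given the library totals, adjusted by Benjamini-Hochberg over the 8339 known genes with at least 10 reads in sum. A gene was called when its adjusted p was under 0.05 and its ratio at least 2-fold, after 0.5 reads were added to each count. Of all genes tested, 17.5% passed, 12% in favour of replicate 1 and 5.53% in favour of replicate 2. Among the 34 members with enough reads, 18 favoured replicate 1 and 0 favoured replicate 2, and 26 had an unadjusted p under 0.05 in the exact test. The median log2 ratio (replicate 2 over replicate 1) was -1.14 over these members and -0.28 over all genes tested, and 31 of 34 were negative. Members that passed the minimum only through the library where they were high had to differ, so the counts describe these 34 genes and not the other 20. Scaling by TMM (edgeR) and by DESeq2 size factors moved the median of all genes by 0.26 and 0.27 and left 13 members called higher in replicate 1; the 5 that lost the call under both were Bgn, Sparc, Mmp2, Fn1 and Col11a1. Over all 8339 genes, 542 favoured replicate 1 and 801 replicate 2 with TMM, and 534 and 836 with DESeq2 size factors. Of all genes called, 31.6% favoured replicate 2 as scaled here, 59.6% with TMM, 61.0% with DESeq2 size factors and 63.7% with the length trend described below removed.

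Marker genes of other cell types also differed between the libraries, in both directions; 6 genes stand in both a marker list and a matrix list, among them Fmod and Smoc2. Schwann cell markers had 5 of 7 tested genes called higher in replicate 1, also with TMM and with the length trend removed, and a summed level of 1554 and 516 CPM. Of them Prx had 30 and 3 reads and Mal 11 and 0. Fibroblast and fibro-adipogenic progenitor markers had 2 of 13 called higher in replicate 1, near the share over all genes, with 423 and 250 CPM in sum. These were Cd34 (-1.28) and Smoc2 (-1.16), of which 1 was called with TMM and 0 with the length trend removed, while Ly6a (9 and 26 reads, 1.07), Abca8a (0.67) and Clec3b (0.50) had ratios above 0 and were not called.

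Tendon markers had 3 of 9 called higher in replicate 1, led by Cilp2 at -2.04 and Fmod at -1.68, with 671 and 524 CPM. In the same list Thbs4 had 94 and 204 reads (0.71), under the 2-fold minimum, and was called higher in replicate 2 with the length trend removed. Angptl7, with the most reads, was at -0.16. Outside partial and genomic models both were called higher in replicate 1, Thbs4 at -1.78 (39 and 13 reads) and Angptl7 at -2.10 (188 and 51). There 6 of 9 tendon markers were called higher in replicate 1, beside 17.8% of all genes. Pericyte and smooth muscle markers had 3 of 7 called higher in replicate 1, led by Tagln at -1.34 and Abcc9 at -1.15, of which 0 were called with TMM. Des, most of their 3497 and 4062 CPM, was at 0.30 (log2). Outside partial and genomic models Des had 2861 and 1314 reads and was called higher in replicate 1 (-1.35). Adipocyte markers had 3 of 7 called higher in replicate 2, among them Fabp4 at 1.68 and Plin4 at 1.15, with 472 and 705 CPM in sum. Plin4 had 5 and 4 reads outside partial and genomic models, a ratio of -0.52, and Lpl (292 and 298 reads) was at -0.38 over all models.

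Endothelial markers had 1 of 8 called higher in replicate 2 (Egfl7, 1.26; 136 and 166 CPM), immune markers 0 of 7 (191 and 122 CPM, 1 of 7 with an unadjusted p under 0.05 in the exact test) and satellite cell markers 0 of 2 (30.9 and 24 CPM, 0 of 2 at that level). Muscle fibre genes had 2 of 8 called higher in replicate 1, Atp2a1 at -1.95 and Actn3 at -1.36, and 306752 and 214189 CPM in sum. Tnnt3 (0.72), Mylpf (0.43), Tnni2 (0.29) and Myh4 (0.23) had ratios above 0, under the 2-fold minimum, and the median of the list was 0.03. Outside partial and genomic models Myh4 was called higher in replicate 1 (-2.345), while Tnnt3 (0.57), Mylpf (0.58) and Tnni2 (0.19) stayed above 0. Ptprc and Pax7, which define immune and satellite cells, had no reads in either library. The part of cell composition in the members' ratios was not tested, and in bulk tissue fewer cells of a type and less RNA per cell cannot be told apart.

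Model length also moved with the ratios. When a trend of the log2 ratio on transcript length over all genes was removed, 8.69% of 8120 genes passed, 3.15% in favour of replicate 1 and 5.54% in favour of replicate 2. Under that trend 6 members stayed called higher in replicate 1, namely Gsn, Col3a1, Col1a1, Col6a1, Col5a2 and Col22a1, and the members' median was -0.74. The 12 that lost the call were Col1a2, Col5a1, Col11a1, Col11a2, Col4a1, Col6a2, Bgn, Sparc, Lamb2, Fn1, Lox and Mmp2. Col4a2 alone was then called higher in replicate 2, at 1.11 on the log2 scale.

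The ratios were then recomputed without partial models. Of 29 members tested, 15 were called in favour of replicate 1 and 0 in favour of replicate 2, at a median of -1.40 on the log2 scale, beside 18.7% of all genes called (12.2% for replicate 1, 6.45% for replicate 2). Col4a2 changed direction. The call was lost by Col5a1 (-0.89 against -1.42), Fn1 (-0.71 against -1.57), Col22a1 (-1.60 against -1.99) and Sparc (-0.99 against -1.09), and the ratios of Col6a1 (-1.59 against -1.76) and Col4a1 (-1.40 against -1.48) were smaller but called. When genomic models were left out too, 21 of 24 members favoured replicate 1 and 0 replicate 2, beside 22.8% of all genes (17.8% and 4.96%). The median over the 24 was -2.26, and -2.21 with the 3 members at 0 reads in replicate 2 set to a floor of 3 reads. Restricting the count to spliced models, an alternative chosen after the data were seen, called 23 of 32 in favour of replicate 1 and 0 in favour of replicate 2, beside 21.7% of all genes (17.9% and 3.79%), with a median of -1.71. Leaving out only models under 50 bases called 20 of 34 members for replicate 1 and 0 for replicate 2, at a median of -1.29. Beside them 1031 and 450 of 8244 genes were called. Col5a3, Serpinh1 and Timp2 gained the call there and Mmp2 lost it. All 11 collagens tested without partial and genomic models were called higher in replicate 1, and 10 of the 13 other members, the exceptions being Dcn, Lum and Mgp. In each of these settings, members that passed the minimum only through replicate 1 had to differ, so the counts describe only the genes tested. Among the 24 these include Col11a2 (10 and 0 reads), Col5a2 (13 and 0), Col5a3 (18 and 0) and Nid1 (15 and 1). Col5a1 (13 and 3), Timp3 (14 and 3) and Lox (16 and 3) also passed mainly through replicate 1.

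**Figure D2:**
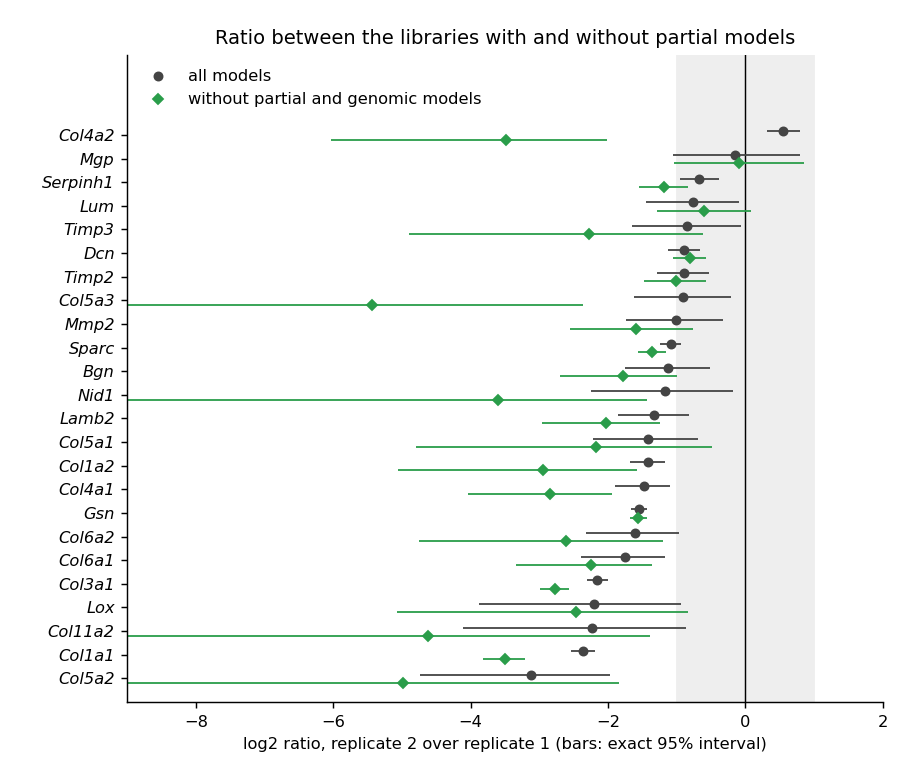
Log2 ratio of replicate 2 over replicate 1 for the 24 members with at least 10 reads outside partial and genomic models; circles use all models, diamonds leave out partial and genomic ones, bars are exact 95% intervals drawn to -9 at most, and the grey band marks ratios under 2-fold. Diamonds lie left of the circles for all 11 collagens drawn, and Col4a2 crosses 0 (0.55 against -3.49); for Col5a2, Col5a3 and Col11a2, which had no such reads in replicate 2, the diamond's place depends on the 0.5 reads added.

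Fibrillar collagens held most of the collagen reads, 3473 in replicate 1 and 1077 in replicate 2, and 7 of the 8 tested were called higher in replicate 1. Col3a1, the single chain of type III, had 1555 and 463 reads (1500 and 337 CPM), a log2 ratio of -2.15 with a 95% interval of -2.31 to -2.004. Col1a1, the more abundant chain of type I, had 1354 and 349 reads (1306 and 254 CPM) and a ratio of -2.36 (-2.54 to -2.19). Col1a2, the second chain of type I, had 399 and 197 reads (385 and 143 CPM) and a ratio of -1.42 (-1.68 to -1.18). In all of these replicate 1 was the higher library, with intervals that lie wholly beyond 2-fold.

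Type I collagen is a trimer with more Col1a1 than Col1a2 chains, and Col1a1 had 3.39 reads per Col1a2 read in replicate 1 (3.03 to 3.80) and 1.77 in replicate 2 (1.48 to 2.12). Without partial and genomic models the same quotient was 32.7 and 24.5, since only 29 and 4 reads of Col1a2 were left, against 949 and 98 of Col1a1. Col3a1 had 1.15 and 1.33 reads per Col1a1 read over all models.

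Type V collagen sits inside type I fibrils and limits their width. Its chains Col5a1 and Col5a2 had 47 and 42 reads in replicate 1 and 23 and 6 in replicate 2, which gave ratios of -1.42 and -3.12 on the log2 scale, both called. Col5a3 had 44 and 31 reads and was not called (-0.91), but outside partial and genomic models it had 18 reads in replicate 1 and 0 in replicate 2, where Col5a2 had 13 and 0. A genomic model of 1 base at the end of Col5a3 held 17 of its reads in replicate 2. Without models under 50 bases Col5a3 was called higher in replicate 1 (-2). The type XI chains Col11a2 (19 and 5 reads, -2.23) and Col11a1 (9 and 1, -3.07) were called, at few reads each. Col2a1 and Col24a1 had 3 reads each over both libraries, and Col27a1 had none.

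Reads of the long fibrillar transcripts stopped short of the 5′ end more often in replicate 2. Among reads outside genomic models, the share that entered the first exon of Col1a1 was 73.7% in replicate 1 (Wilson 95% interval 71.2 to 76.0) and 36.8% in replicate 2 (31.1 to 42.9). For Col3a1 it was 84.2% (82.3 to 85.9) and 48.6% (44.0 to 53.2). These transcripts measure 5930 and 5564 bases, with 51 exons each. Reads that stayed within the last exon were 2.96% and 23.3% for Col1a1, and 1.54% and 29% for Col3a1. Among shorter transcripts the share varied. It was 99.1% and 98.5% for Timp2 (3709 bases, 5 exons), 96.7% and 92.9% for Serpinh1 and 95.7% and 92.1% for Gsn (2653 bases, 17 exons), but 80.2% and 70.3% for Dcn (1758 bases) and 52.6% and 40.4% for Sparc (2300 bases). For Dcn and Sparc, reads of annotated models that begin downstream of that exon also miss it. These were Dcn-202 (61 and 55 reads), Sparc-205 (161 and 92) and Sparc-203 (18 and 22). Only 3.70% and 9.29% of the Dcn reads outside genomic models were partial. Genomic models, left out of all these shares, held 9.91% and 42% of all Serpinh1 reads and 18.4% and 32% of all Timp2 reads. Nearly all of these lay in models of 1 to 20 bases at the end of the gene, which do not reach the first exon. For Gsn genomic models held 0% and 8% of all reads, for Col1a1 5.10% and 27.5%, and for Col3a1 0.064% and 0.86%.

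**Figure D3:**
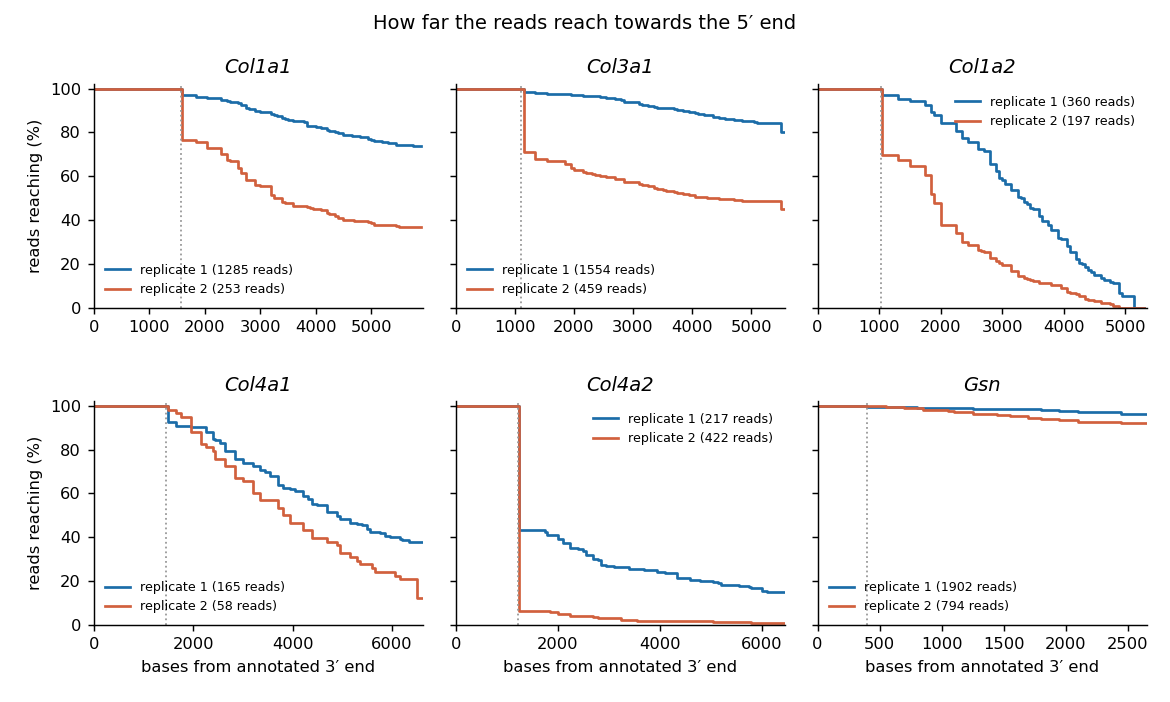
Share of reads outside genomic models whose 5′ end lies at least a given number of transcript bases from the annotated 3′ end, for 6 members; lines are the 2 libraries, and the dotted line marks the length of the last exon. Replicate 2 drops at the last exon border of Col1a1, Col3a1, Col1a2 and Col4a2, where 23.3%, 29%, 30.5% and 93.8% of its reads end, while both libraries stay above 90% to the start of Gsn. A Gsn model of the last 391 bases was classed as partial in replicate 1 (11 reads, drawn). The same stretch was classed as genomic in replicate 2 (68 reads, left out), so the Gsn lines are not alike in what they count.

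Many partial models also ended before the annotated 3′ end. In Col1a1, 320 of 336 partial reads in replicate 1 and 153 of 155 in replicate 2 ended at chr11:94951847, 1195 bases before the annotated end. In Col3a1, 235 of 242 and 220 of 234 ended near chr1:45349017, 689 bases before it. Col1a2 used both places: 179 of 331 partial reads in replicate 1 and 76 of 193 in replicate 2 ended near chr6:4540970, 574 bases before the annotated end, and 150 and 116 ended at it. Reads of annotated models carry the annotated ends in these files, so ends are given for the partial models only. They are the ends of models and need not be the ends of the reads, since genomic models of 1 base also occur, such as 1 of Col1a2 at chr6:4540970. A genomic model of Col1a1 with 1 exon of 1196 bases, chr11:94951847-94953042, spans the stretch between both ends and had 69 and 96 reads.

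Col1a2 had almost no read in an annotated model, 0 in replicate 1 and 1 in replicate 2, and 91.9% and 98% of its reads outside genomic models were partial. Only 5.28% of the reads outside genomic models in replicate 1 (3.41 to 8.10) and 0 of 197 in replicate 2, which allows up to 1.91% by the Wilson interval, reached the first exon. The annotated transcript has exons of 11 and 15 bases next to the first exon. No model that spanned them included them: 0 of 19 reads for exon 2 and 0 of 21 for exon 3, all in replicate 1. Exon 2, with under 20 spanning reads, was chosen after its values were seen. Exon 4 (36 bases) was present as annotated in 16 of 22 spanning reads, with 16 more bases at its 5′ edge in 4 and absent in 2. The stretch is shown in coding direction with exons 2 and 3 in capitals, since no model of a spanning read included these exons. Whether the RNA or the placement of the reads lacks them was not tested.
Col1a2 exons 2 and 3 with 24 bases of exons 1 and 4, chr6:4508335-4508954, plus strand: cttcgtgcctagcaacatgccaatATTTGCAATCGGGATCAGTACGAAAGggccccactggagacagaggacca
A partial model of 48 exons, chr6:4510684-4540970, had 15 reads in replicate 1 and 1 in replicate 2.

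Among the basement membrane collagens, Col4a2 changed direction with the models counted. Col4a1 and Col4a2 lie head to head on chromosome 8 and their products join in 1 trimer with more Col4a1 than Col4a2 chains. Col4a1 had 165 and 78 reads (159 and 56.8 CPM) and was called higher in replicate 1, at -1.48 (-1.90 to -1.09). Col4a2 had 217 and 422 reads (209 and 307 CPM), a log2 ratio of 0.55 (0.31 to 0.80) in favour of replicate 2, which passed the exact test (adjusted p = 3.9e-05) but not the 2-fold minimum. A partial model with 1 exon, the last exon of 1229 bases at chr8:11448059-11449287, held 123 of the 217 reads and 396 of the 422. Without partial and genomic models Col4a2 had 33 and 3 reads and a ratio of -3.49 (-6.04 to -2.02), and in spliced models it had 94 and 26 reads and a ratio of -2.10. Col4a1 kept its direction without them (64 and 10 reads, -2.85). The share of reads that reached the first exon was 14.8% and 0.711% for Col4a2, and 37.6% and 20.7% for Col4a1.

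Col4a1 had 0.760 reads per Col4a2 read in replicate 1 (0.617 to 0.935) and 0.185 in replicate 2 (0.143 to 0.236). Outside partial and genomic models the quotient was 1.94 (1.26 to 3.05) and 3.33 (0.858 to 18.9). Col4a2 led over all models and Col4a1 outside partial and genomic ones, in both libraries; in replicate 2 the latter interval includes 1. The first exons of both genes overlap on opposite strands, where unspliced reads cannot be assigned without strand. Col4a3 and Col4a4, which form the network of kidney and lung, had 1 read each, and Col4a5 and Col4a6 had none.

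Beaded filament collagens were led by type VI, whose chains are mutated in Ullrich and Bethlem muscle disease. Col6a1 had 85 and 33 reads (-1.76) and Col6a2 65 and 28 (-1.61), both called higher in replicate 1, with 1.31 and 1.18 Col6a1 reads per Col6a2 read. Col6a3, the longest chain, had 10 and 7 reads and was not called. Col6a5, Col6a6 and Col28a1 had 1 or 2 reads in sum, and Col6a4 none.

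No read of Col6a1 fell in an annotated model, although its longest model ran over the whole gene. That model, with 32 exons and 4090 bases, had 41 reads in replicate 1, where it was classed as new junction, and 10 in replicate 2, where it was classed as new combination; the annotated transcript has 35 exons and 4100 bases. Its 9-base exon 29 was absent from 73 of 74 spanning reads in replicate 1 and from 18 of 18 in replicate 2, and the remaining read ran through without a junction. In its place exon 28 was 41 instead of 37 bases long, with 4 bases more at its 3′ edge, in 72 of 73 and 18 of 18 reads. The 21-base exons 6 and 7 were absent from 54 of 54 and 11 of 11 spanning reads, in all of which exon 8 was 82 instead of 45 bases long, with 37 more at its 5′ edge. They are printed in coding direction with the absent exons in capitals and 24 bases of the neighbouring exons.
Col6a1 exon 29, chr10:76712865-76712873, minus strand: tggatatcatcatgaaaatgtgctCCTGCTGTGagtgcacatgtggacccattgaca
Col6a1 exons 6 and 7, chr10:76721088-76721283, minus strand: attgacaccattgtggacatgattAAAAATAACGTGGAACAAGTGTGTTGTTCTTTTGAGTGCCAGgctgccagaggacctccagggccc
The missing letters and the shifted edges stand side by side in the models; whether the RNA or the placement of the reads lacks these exons was not tested.

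Exons of the members were otherwise present as annotated. Of 533 internal exons in 25 members with at least 20 spanning reads, 12 were present in under 90% of them, and the median was 100%. Both exons of up to 15 bases were at 0%, 4 of the 10 exons of 16 to 30 bases were under 90%, and 6 of the 521 longer ones were. The longer ones include Sparc exon 6, whose count takes in reads of an annotated model that begins there. Col6a2 exons 7, 8 and 9 (45, 27 and 27 bases) were present in 28 of 33, 29 of 34 and 31 of 36 reads in replicate 1 and in 3 of 3 in replicate 2.

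**Figure D4:**
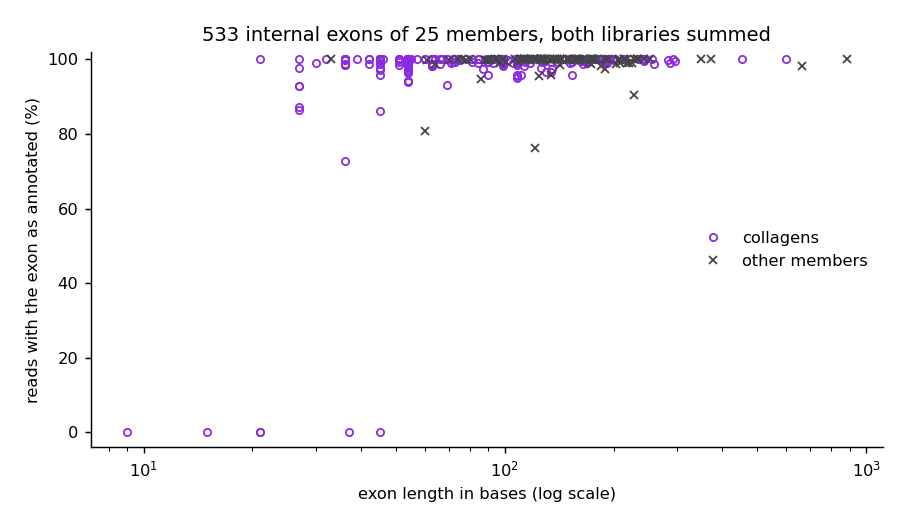
Share of spanning reads, both libraries summed, that hold an internal exon with its annotated edges, against exon length on a log axis; circles are collagens, crosses other members, 533 exons with at least 20 spanning reads each. Most lie at or near 100%; the points at 0% are the short Col6a1 and Col1a2 exons and the 2 Col6a1 neighbours with other edges.

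Other collagens were rare. Among the fibril-associated chains, Col22a1, which marks the junction of muscle and tendon, had 25 and 8 reads and was called higher in replicate 1 (-1.99), but not without partial models (8 and 3 reads, -1.60). Col14a1 had 10 and 5 reads and was not called (-1.34). The multiplexins Col18a1 (11 and 19 reads, 0.36) and Col15a1 (12 and 8, -0.96) lie in basement membranes; neither was called. In Col18a1, 1 and 13 of these reads were in 1 genomic model of 314 bases. Fewer than 10 reads were found for Col7a1, Col8a1, Col8a2, Col9a1, Col9a2, Col12a1, Col13a1, Col16a1, Col19a1, Col20a1, Col23a1 and Col26a1, and no read for Col9a3, Col10a1, Col17a1 and Col25a1.

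Of the 3 small proteoglycans 1 was called, Bgn. Dcn (decorin) had 378 and 270 reads (365 and 197 CPM), a log2 ratio of -0.89 (-1.12 to -0.66) that passed the exact test (adjusted p = 1.8e-13) but not the 2-fold minimum, and -0.81 without partial and genomic models. Biglycan (Bgn) had 61 and 37 reads and was called higher in replicate 1 (-1.12), though not with TMM (-0.87), DESeq2 size factors (-0.85) or the length trend removed (-0.65). It had 48 and 14 reads in the annotated model and 3 and 14 in a partial model of the last exon. Lum (lumican) had 45 and 35 reads and was not called (-0.76, interval -1.45 to -0.10). The order was the same in both libraries, with 8.40 and 7.71 Dcn reads per Lum read and 6.20 and 7.30 per Bgn read. Dcn reads used mainly Dcn-201 (299 and 186) and less Dcn-202 (61 and 55), which begins further downstream.

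Among glycoproteins Sparc was the most abundant. Sparc (osteonectin), which binds collagen and calcium, had 948 and 592 reads (915 and 431 CPM) and was called higher in replicate 1, at -1.09 (-1.24 to -0.94); without partial models it was -0.99 and not called, and without partial and genomic ones -1.36 and called. A genomic model of 1 base at the last base of the gene held 113 and 176 of its reads. Sparc-201 had 352 and 129 reads and Sparc-202 81 and 31. Exon 3 began at either of 2 places: 369 of 453 spanning reads in replicate 1 (81.5%) and 141 of 179 in replicate 2 (78.8%) had the 60-base form, and 84 and 36 the form that leaves out its first 3 bases, shown here in capitals because they are all that separates both forms of the exon.
Sparc exons 2 and 3, exon 3 at chr11:55407220-55407279, minus strand: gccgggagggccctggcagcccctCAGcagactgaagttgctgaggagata
Exon 6 (121 bases) had 94 more bases at its 5′ edge in 162 of 742 and 93 of 339 reads counted as spanning it. Sparc-205, the annotated model that begins at that longer edge, had 161 and 92 reads. Its reads start there and do not cross the exon from upstream.

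The remaining glycoproteins had few reads. Lamb2, a laminin chain of the synaptic basement membrane, had 93 and 49 reads and was called (-1.32). Fn1 (fibronectin) had 23 and 10 reads and was called (-1.57), but not without partial models (8 and 6 reads, -0.71), with either scaling, with models of at least 2 reads only (-1.19) or with the length trend removed (-1.06). Models under 50 bases held 3 and 6 of its reads. Without them Fn1 was called (-2.57), as it was in spliced models (-2.45). Its alternative exons had under 20 spanning reads and are given after their values were seen: exon 25 (273 bases), known as extra domain B, was absent from 9 of 9 and 1 of 1 spanning reads, and exon 33 (270 bases), extra domain A, was present in 2 of 11 and 0 of 1. In exon 40, which carries the variable segment, 2 of 12 reads and 1 of 1 left out the first 360 bases. Nid1 (24 and 14 reads, -1.16), Fbn1 (21 and 22, -0.34), Eln (16 and 18, -0.24) and Mgp (20 and 24, -0.15) were not called, and Postn had 6 and 2 reads. For Mgp, a short transcript of 617 bases, the ratio without partial and genomic models was -0.10 (20 and 22 reads).

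Of the 5 genes of collagen folding, crosslinking and turnover, 2 were called with all models and 5 without partial and genomic ones, all higher in replicate 1. Serpinh1 (Hsp47), the collagen chaperone of the endoplasmic reticulum, had 232 and 193 reads (224 and 140 CPM), -0.67 and not called; without partial and genomic models it had 202 and 104 reads and was called (-1.19). Genomic models of 20 bases in replicate 1 and 7 bases in replicate 2, both at the end of the gene, held 23 and 81 of its reads. Lox, which crosslinks collagen and elastin, had 22 and 6 reads and was called (-2.20). Mmp2, a gelatinase, had 46 and 30 reads and was called at the 2-fold edge (-1.02), and its inhibitor Timp2 had 141 and 100 and was not (-0.90). Mmp2 had 0.326 and 0.3 reads per Timp2 read. Timp3 had 34 and 25 reads (-0.84, not called), of which 18 and 22 were in a 1-exon partial model and 14 and 3 in the annotated one.

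Gsn and Pdgfra are further members that are not part of the matrix itself. Gsn (gelsolin) severs actin filaments in cells and in a secreted form in plasma. It had 1902 and 863 reads (1835 and 628 CPM) and was called higher in replicate 1, at -1.55 (-1.67 to -1.43). This ratio was -1.56 without partial and genomic models and -1.02 with the length trend removed, and it was called in both. Gsn-201 held 1783 and 721 reads, and Gsn-205, which begins further upstream, 11 and 0. Pdgfra, the receptor used to sort fibro-adipogenic progenitors, had 4 and 7 reads and was not called.

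The share of partial models was compared by a two-sided Fisher exact test for genes with at least 50 reads outside genomic models in each library. Of 1644 genes, 19.1% were called, 1.28% with a higher share in replicate 1 and 17.8% in replicate 2. Of 10 members tested, 4 were called and all had the higher share in replicate 2: Col3a1 (15.6% and 51%), Col1a1 (26.2% and 61.3%), Col4a1 (61.2% and 82.8%) and Col4a2 (84.8% and 99.3%). Col1a2, at 91.9% and 98%, differed by 6.03 percentage points, under the minimum of 10. Dcn, Gsn, Sparc, Serpinh1 and Timp2 differed by 2.07 to 5.59 points and were not called. Over all members, 22.4% of reads in replicate 1 and 37.3% in replicate 2 were partial and 4.08% and 14.9% genomic; for the collagens partial models held 34% and 66.9%.

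**Figure D5:**
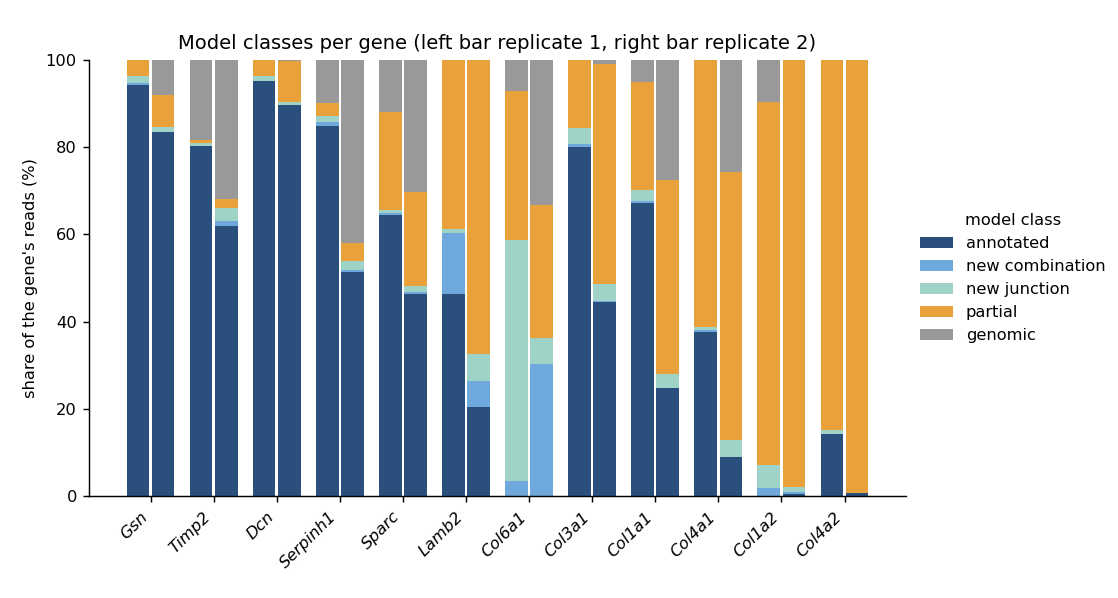
Share of each gene's reads in the 5 model classes, for the 12 members with at least 100 reads in sum; the left bar of a gene is replicate 1, the right bar replicate 2. Among these 12 genes the partial share of all reads is smaller in replicate 2 for Sparc and Col6a1 and larger for the others, by little for Col4a1, Serpinh1 and Timp2.

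The leading junction chain was compared in the same way among spliced reads, where 8.65% of 1503 genes were called. Of 9 members tested, 5 were called: the annotated chain had a smaller share in replicate 2 for Col1a1 (-28.1 percentage points), Col4a1 (-28.2), Col3a1 (-18.5) and Sparc (-11.0), and in Col1a2 a partial 7-exon chain had a larger one (10.7). When partial and genomic models were left out, 0 of 7 members were called by the Fisher exact test, 4 of them at an unadjusted p under 0.05. Over all genes 17 of 1356 were called there.

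Genes of matrix pathways outside the members were taken from 9 lists. Of their 142 genes, 135 had reads and 92 were tested, of which 25 favoured replicate 1 and 0 favoured replicate 2, where the shares over all genes were 12% and 5.53%. With TMM the counts were 18 and 2, where 542 and 801 of all 8339 genes were called. With the length trend removed they were 8 and 3 (3.15% and 5.54% over all genes), the 3 being Podn, Thbs4 and Adamts1. Outside partial and genomic models these 3 had ratios of -1.33, -1.78 and -0.23. Collagen modification and folding enzymes had 3 of 14 called, led by Plod3 (-1.69), a lysyl hydroxylase, and P4hb (-1.34), a subunit of prolyl hydroxylase. Propeptide removal and crosslinking had 3 of 6, led by the procollagen proteinases Bmp1 (-1.85) and Adamts2 (-1.72). With the length trend removed, 0 genes of either list were called. Other basement membrane genes had 2 of 11, the laminin chains Lamc1 (-1.58) and Lamb1 (-1.51). Proteoglycans had 2 of 6 (Fmod at -1.68 and Prelp at -1.20), and elastic fibre genes 2 of 11 (Ltbp4 at -1.70 and Fbln5 at -1.50).

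Matricellular genes had 5 of 13 called, led by Thbs1 (16 and 2 reads) and Tnc (13 and 2 reads). Matrix receptors had 4 of 11, led by the integrins Itga5 (-2.44) and Itga7 (-1.66), the latter the laminin receptor of muscle fibres. Growth factor signalling had 3 of 10, led by Tgfb3 (-2.02) and its receptor Tgfbr1 (-1.44), and proteases and inhibitors 1 of 10, Mmp15 (-1.99). Median ratios of the lists ran from -1.67 for propeptide removal to -0.39 for proteases, against -0.28 for all genes tested.

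The promoters were searched for 2 motifs. In the RefSeq promoter table (GRCm38.p6, 250 bases before to 50 after the start), 39 of 54 members matched by symbol. CCAAT, on either strand, was in 13 of 39 members and in 41.1% of 27025 genes, and TATAA, on either strand, in 10 of 39 and in 28%. A match is only a run of letters, and the absence of one says nothing on a factor.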

How the data were processed

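Total RNA of 2 gastrocnemius samples was sequenced as long reads, 1 library each. The authors deposited, per library, a table of read counts per transcript model with the class of each model, and an annotation of the models whose source column names TALON; per the file headers the counts are whole reads, not normalized, and exon number and length stand beside them. The assembly is mm10 per the labels, and the gene models are GENCODE M21 per the deposited text file. The aligner and the tool versions: not given in the sources used here.

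Counts of known mouse genes were summed per gene, without spike-in RNAs, over 1036455 and 1374068 reads. CPM was computed on these totals, and the 2 libraries were compared by two-sided exact binomial tests (genes with at least 10 reads in sum, 0.5 reads added for ratios) and by Fisher's exact tests of shares (at least 50 reads per library, a difference of at least 10 percentage points), all with Benjamini-Hochberg adjustment over all genes at 0.05 (scipy 1.17.1, statsmodels 0.14.6, R 4.3.3). A dispersion model such as edgeR's quasi-likelihood test has no residual degrees of freedom with 1 group of 2 libraries, so these tests measure counting error only. Intervals are at 95%. TMM factors (edgeR 4.0.16) and DESeq2 1.42.0 size factors served as alternatives, as did other model classes, minima, a pseudocount of 5 and a lowess trend on length (fraction 0.3).

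The members and gene lists were chosen with earlier results of these data known. Members with at least 100 reads were named in full, those with 10 to 99 if called or alone in their role, and of other lists the 2 called genes with the largest ratios; other members and exons named beyond this were chosen after their values were seen. Whether counting used strand is not given here either.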

Additional observations from a re-analysis of the deposited data

Results flagged for a closer look

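Reads in models on the strand opposite a member belong to no comparison above. Opposite Col1a1 there were 79 such reads in replicate 1 and 179 in replicate 2, all unspliced, which is 5.84 and 51.3 per 100 reads of Col1a1 itself. Opposite Sparc there were 10 and 34, opposite Col1a2 14 and 6, opposite Col5a2 5 and 8, and opposite Col4a1 4 and 4. These 5 genes were above a background of 3 reads in both libraries. In all, 28 members had reads opposite them, 122 in replicate 1 and 295 in replicate 2, of which 4 and 4 were spliced. Their source was not tested.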

How the results depend on the processing

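The count of members higher in replicate 1 fell from 18 to 6, and that of members higher in replicate 2 rose from 0 to 1, when the length trend was removed; the genes called fell from 1458 to 706 under that setting and to 850 with a minimum of 50 reads, where fewer genes were tested. The median ratio of the tested members moved from -1.14 to -2.26 without partial and genomic models. Col4a2 reversed from 0.55 to -3.58 without partial models, to -3.49 without partial and genomic ones and to -2.10 in spliced models, the last chosen after the data were seen. Members called for the partial share rose from 4 to 8 with genomic models counted as partial and to 7 with no minimum difference. Over all genes the calls rose too, from 314 of 1644 to 612 of 1834 and to 426 of 1644. Members called for the leading chain fell from 5 to 0 without partial and genomic models, and all genes called from 130 of 1503 to 17 of 1356. The cause was not tested. Of 236 values of 23 named members under the alternatives, 196 kept their direction and call, 30 lost the call, 7 gained it and 3 reversed. Of the 30, 12 were lost with the length trend removed and 5 each under TMM and DESeq2 factors. With no minimum of reads and with a minimum of 50 the ratios are the same by construction. Only the adjustment differs there, so the values kept under these settings say little. Leaving out a replicate leaves 1 library and no ratio, and the summed level then ran from 2913 to 7834 CPM. No paired analysis was possible because the series has 1 group. Members with under 10 reads in sum, 20 of 54, were too shallow for the test.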
